A study of Humulus lupulus with 6 samples.

Results

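In the Cascade hop cultivar, 220 of 67811 loci were expressed in both young leaf and growing stem and were low in the apical meristem. A locus here is a place on an assembled contig where gene models of the leaf, meristem and stem count tables overlap on one strand by 1 exonic base or more. The members were chosen by measured values. Each has a model in all 3 tables and reached a level of 10 in normalised CPM (CPM, a count scaled to the total counted fragments of its tissue, here after TMM scaling factors) in leaf and in stem, with each of these levels at least 4-fold above the meristem level. They are 1.23% of the 17864 loci that were compared, that is, loci with a model in all 3 tables and 10 normalised CPM in at least 1 tissue. For comparison, 208 loci (1.16%) were low in leaf alone and 1104 (6.18%) in stem alone by the same limits. Without scaling factors, which raise leaf over meristem by 0.62 and stem over meristem by 0.05 on the log2 scale at every locus, 124 loci met the same limits, and 117 of them are among the 220. The levels and folds below are what the choice was made on, so they are a description without a test.

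RNA was taken from young leaves, from stems still growing and from apical meristems of untreated glasshouse plants of Humulus lupulus; the sprays given were against insects and fungi. The labels list 2 samples of each tissue but speak of a single library for each, and the tables hold 1 count column per tissue, so no spread between plants can be given and every interval below covers counting error or the number of loci only. Counted fragments numbered 162799212 in the leaf column, 135877224 in meristem and 125454712 in the stem column. The files pair no gene names with their models, so loci are named by their contig in a masked, deduplicated Cascade assembly, and neither the tissues nor the members could be checked against marker genes.

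The shoot apical meristem is a small dome of dividing cells at the shoot tip from which leaves and stem are formed. Leaf and stem are organs with differentiated cells, and both contain epidermis, green tissue and vascular strands. The dividing dome itself has not yet formed the xylem and phloem of such strands. In a bulk tissue, fewer cells of a type and less RNA per cell cannot be told apart.

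The members' levels were moderate for most loci and high for a few. In leaf their normalised CPM ran from 10.0004 to 7433 with a median of 34.9, and in stem from 10.3 to 1559 with a median of 36.5. In meristem the range was 0.453 to 289.9 and the median 4.46. Over all loci compared, the leaf, meristem and stem medians were 21.4, 19.8 and 18.9. The smallest count behind a member was 72 fragments in meristem, 1236 in leaf and 1451 in stem, so no member rests on a count near 0.

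Many members lay close to the limit. The smaller of the 2 folds over meristem had a median of 5.65, and it was under 5 at 86 members, at least 8 at 40 and at least 16 at 6. The leaf fold over meristem had a median of 7.08 and the stem fold one of 6.76, against medians of 1.04 and 1.002 over all loci compared. Of the loci compared, 9.74% met the limits for leaf against meristem and 8.7% those for stem against meristem.

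**Figure D1:**
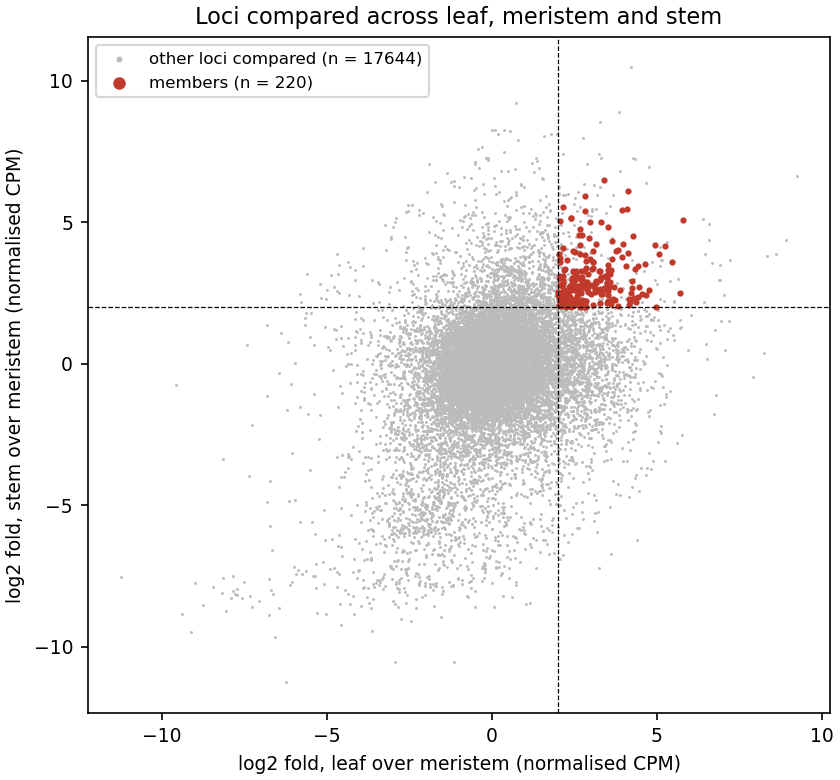
Log2 fold of leaf over meristem (horizontal) and of stem over meristem (vertical), in normalised CPM, for the 17864 loci compared; the 220 members are red and the dashed lines mark 4-fold. Members fill the upper right corner near the lines, and grey points in that corner are loci under 10 normalised CPM in leaf or stem.

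The limit cut through a continuous range of folds. Just inside it were a 3-exon locus on 008670F, bases 20364 to 23505 (minus strand), whose stem level was 4.01-fold above meristem, one on 000736F, bases 946226 to 947764 (plus strand), with 4.02-fold in stem, and one on 000157F, bases 465177 to 468177 (minus strand), with 4.03-fold in leaf. Just outside were loci on 001606F, bases 535046 to 536322 and on 001669F, bases 305380 to 306223, with stem folds of 3.999 and 3.998, and one on 005407F, bases 207814 to 211355, with a leaf fold of 3.996. The 95% counting intervals of the 3 folds inside all reach below 4, with lower ends of 3.72, 3.83 and 3.91.

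Together the members took 2.05% of all fragments counted in leaf and 2.20% in stem, but 0.319% in meristem. A few loci carried much of this. The 5 members with the highest mean of leaf and stem level held 50.2% of the members' leaf fragments, with 34.5% in meristem and 29.2% in stem. Without them the members' shares of all fragments were 1.02%, 0.209% and 1.56% in leaf, meristem and stem.

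The highest of these, on 003379F, bases 148496 to 151351 (plus strand, 7 exons), had 918628 leaf, 46042 meristem and 220438 stem fragments. That is 7433, 289.9 and 1559 normalised CPM, so leaf was 25.6-fold (95% counting interval 25.4 to 25.9) and stem 5.38-fold (5.32 to 5.43) above meristem. Leaf stood above stem by 4.77-fold (4.75 to 4.79). Its models had nearly equal lengths, of 2001 bases in leaf, 1885 in meristem and 1999 in stem. Divided by model length, its leaf level of 3714 CPM per kb and its stem level of 780 CPM per kb ranked 1 among the members in both tissues.

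Next came a 12-exon locus on 000041F, bases 1297382 to 1301590 (minus strand), with leaf, meristem and stem levels of 2635, 228 and 1055 normalised CPM. It was followed by a 6-exon locus on 008063F, bases 5768 to 11643 (minus strand), with 2005, 135 and 832 in the same order. Both were about equally biased to leaf, with leaf over stem ratios of 2.50 and 2.41. A 7-exon locus on 002239F, bases 388252 to 392189 (minus strand) was nearly level between the organs, at leaf, meristem and stem levels of 1387, 276.3 and 1282 normalised CPM. Its leaf over stem ratio was 1.08 (1.075 to 1.09).

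The fifth, a 2-exon locus on 004236F, bases 237005 to 242568 (plus strand), was a stem locus above all. It had leaf, meristem and stem levels of 114, 10.7 and 978 normalised CPM, from 14075, 1702 and 138286 fragments. Stem was 91.3-fold (87.0 to 95.8) and leaf 10.6-fold (10.1 to 11.2) above meristem, and the stem fold was the largest of any member. Per kb of model this locus ranked 6 in stem and 51 in leaf among the 220. A single-exon model on the other strand overlaps 597 of its bases, was seen in the stem table alone and reached 0.587 normalised CPM.

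**Figure D2:**
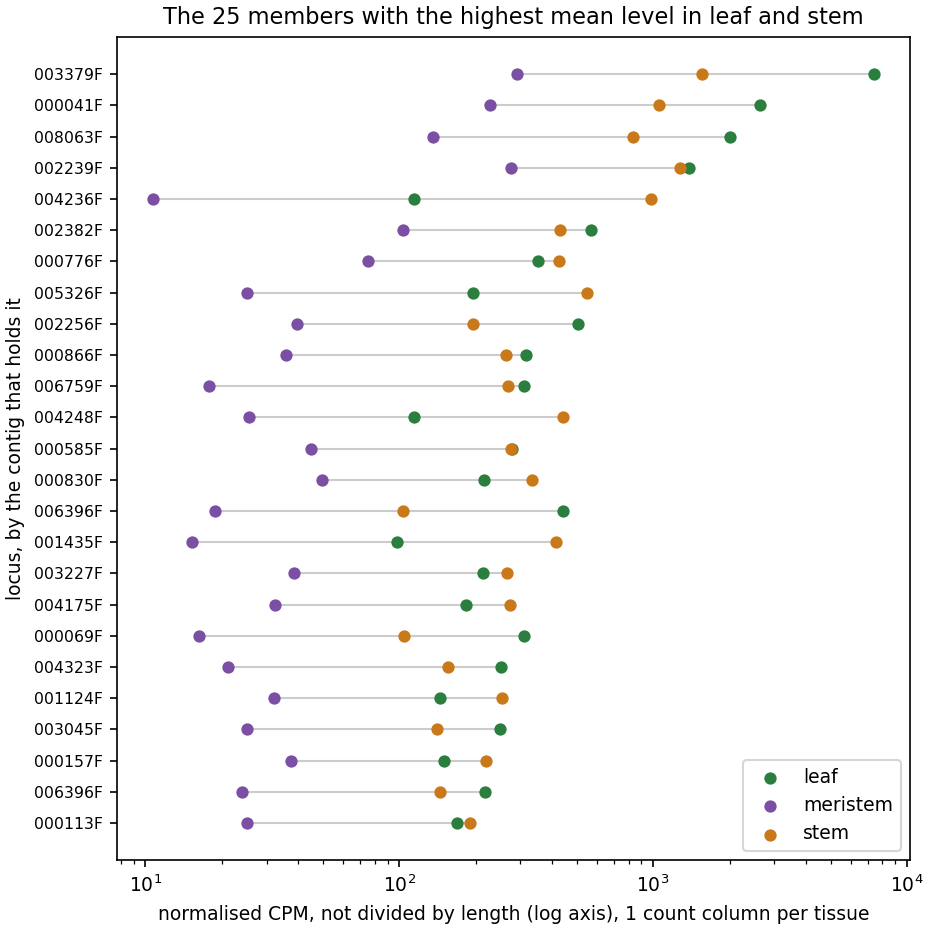
Normalised CPM on a log axis in leaf (green), meristem (purple) and stem (orange) for the 25 members with the highest mean of leaf and stem level, each named by its contig (006396F holds 2 of them). The meristem point is leftmost in every row by the choice of members, while the order of leaf and stem changes from row to row, with the locus on 003379F highest in leaf at 7433.

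A set of 28 members (12.7%) reached 100 normalised CPM in both leaf and stem, against 5.43% of the loci compared. These shares have unlike bases, since the rule asks for 10 in both organs and a locus compared needs it in 1 tissue only. Of the 10200 loci compared with at least 10 normalised CPM in both organs, 970 reached 100 in both. Outside the loci already named, a stem-biased member on 005326F, bases 249884 to 253274 (minus strand, 3 exons), had leaf, meristem and stem levels of 195, 25.2 and 551 normalised CPM. A leaf-biased one on 002256F, bases 612656 to 614338 (minus strand, 4 exons), had 506, 39.4 and 195 in that order. A compact single-exon locus on 000776F, bases 483437 to 484076 (minus strand), had 351, 75.2 and 426 and ranked 5 in leaf per kb of model. These 3 were picked after their values were seen, to show that high members lean to either organ.

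By the smaller of their leaf and stem folds over meristem, the 5 highest members were loci of modest level, at 10.9 to 51.2 normalised CPM in leaf and stem. A 3-exon locus on 000023F, bases 2397032 to 2400412 (minus strand) had 3125 leaf, 72 meristem and 2149 stem fragments, or 25.3, 0.453 and 15.2 normalised CPM. Leaf was 55.8-fold (44.2 to 71.5) and stem 33.5-fold (26.5 to 43.0) above meristem, the highest member by the smaller fold. Per base of model the folds were 49.1 and 26.9.

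The next, a locus on 002327F, bases 405073 to 408692 (minus strand, 3 exons in leaf and stem), had leaf, meristem and stem levels of 31.0, 1.61 and 36.7 normalised CPM. A pair of single-exon loci followed. That on 004264F, bases 318845 to 320742 (minus strand) had 51.2, 1.67 and 30.4 normalised CPM in leaf, meristem and stem. That on 000483F, bases 165787 to 167009 (plus strand) had 33.0, 0.869 and 15.5. Last of the set was a locus on 001252F, bases 155538 to 157533 (minus strand), at 10.9, 0.630 and 43.3. These 4 loci had smaller folds of 19.3, 18.2, 17.9 and 17.3, which are within one another's counting intervals. Of the 5 loci in this set, 4 have a model on their other strand, and in 4 of them meristem had 2 models where leaf and stem had 1.

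With the scaling factors, leaf and stem were on balance at the same level in the members. The median leaf over stem ratio of the members was 0.9997 (order-statistic interval 0.919 to 1.12), against 1.09 over all loci compared. The ratio was within 2-fold at 160 members (72.7%), where 43.4% of the loci compared were within 2-fold. Leaf was at least 2-fold higher at 29 members (13.2%, against 32.3% of loci compared) and stem at 31 (14.1%, against 24.2%). The counting interval of the ratio contained 1 at 24 members. The scaling factors raise leaf over stem by 0.57 on the log2 scale at each locus. Members chosen anew without them had a median log2 ratio of -0.07 (-0.30 to 0.12), against -0.0005 (-0.12 to 0.16) with them. The rule sets like limits on leaf and stem, so a new choice can hold this median near 0 under any factors. For a fixed set of loci, leaving the factors out lowers the log2 ratio by the full 0.57. Both high tissues were set against the same meristem column by the rule, so the narrow spread is a description and not a finding. In the loci low in leaf alone, 79.3% had meristem and stem within 2-fold, and in those low in stem alone 54.5% had leaf and meristem within 2-fold.

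Across the 220 members, log2 levels in leaf and stem had a Pearson r of 0.75 and a Spearman rho of 0.64. The values were higher with meristem, at 0.87 and 0.82 for leaf with meristem and 0.83 and 0.77 for stem with meristem. These values are over loci, which share the same 3 libraries and are not replicates, and the limits of the rule shape them.

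At the leaf end of the range stood a 7-exon locus on 000326F, bases 1340993 to 1344092 (minus strand), with leaf, meristem and stem levels of 142, 2.73 and 15.4 normalised CPM. Leaf was 9.21-fold (8.81 to 9.64) above stem and 52.0-fold above meristem. A locus on 001262F, bases 187564 to 191986 (minus strand, 4 exons in leaf and stem) followed, at 103, 3.24 and 13.1, a leaf over stem ratio of 7.83 (7.46 to 8.23). Its meristem models were shorter, at 2119 bases against 3584 in leaf, and per base its stem fold over meristem was 2.42, below the limit. The locus on 003379F described above was the next.

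At the stem end, a single-exon locus on 002098F, bases 273991 to 275276 (plus strand) had leaf, meristem and stem levels of 11.8, 2.66 and 124 normalised CPM. Stem was 10.5-fold (9.92 to 11.0) above leaf. Its models were of equal length to within a base or so, at 1243, 1244 and 1243 bases. A 3-exon locus on 002880F, bases 382114 to 385232 (plus strand) had 13.0, 1.84 and 113, a stem over leaf ratio of 8.69 (8.25 to 9.15). The 2-exon locus on 004236F, at 8.59, was the next.

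Among the 28 members with at least 100 normalised CPM in both organs, 3 were nearest to equal. A 7-exon locus on 000585F, bases 766257 to 768975 (minus strand) had leaf, meristem and stem levels of 278, 44.8 and 275 normalised CPM, and its ratio of 1.01 (0.996 to 1.03) could not be told from 1 by counting error. The locus on 002239F was next. A 5-exon locus on 001650F, bases 333075 to 336268 (minus strand) had 104, 22.8 and 116, a leaf over stem ratio of 0.891 (0.871 to 0.912).

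**Figure D3:**
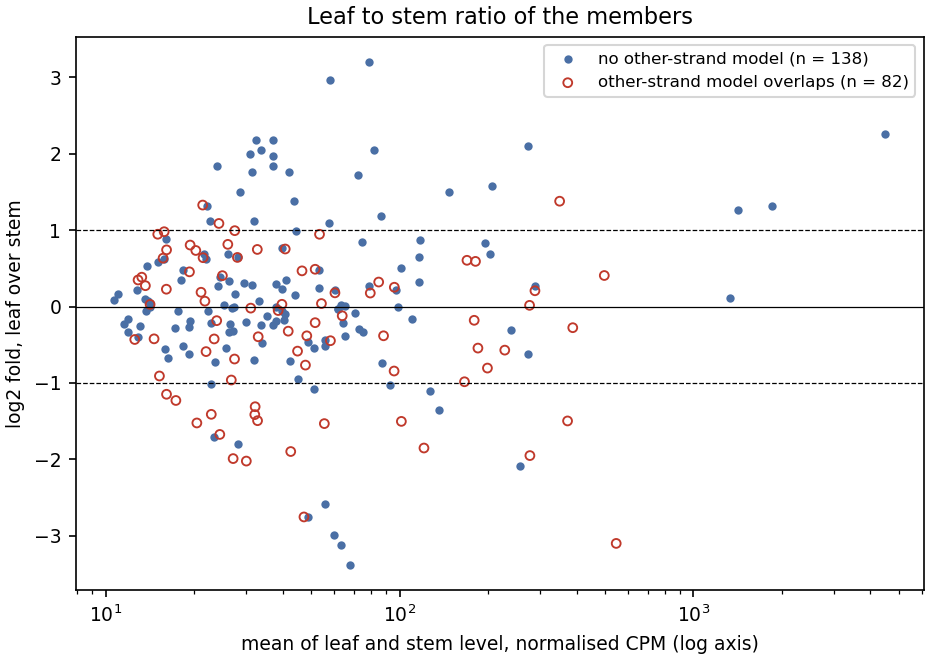
Log2 fold of leaf over stem (vertical) against the mean of the leaf and stem levels in normalised CPM (log axis) for the 220 members; open red circles are the 82 loci with a model on their other strand, and dashed lines mark 2-fold. Most points lie between the dashed lines, and only 3 of the 29 loci above the upper line are open circles, against 18 of the 31 below the lower one.

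The members had fewer exons than most loci. Exon numbers are counted here as separate exonic blocks of the longest-spliced model of the locus. The median was 3 exons (order-statistic interval 3 to 4), against 5 over the loci compared, 7 in the loci low in leaf alone and 4 in those low in stem alone. Of the 220 members, 40 were single-exon (18.2%, exact binomial interval 13.3 to 23.9), against 10.7% of the loci compared, 6.25% of those low in leaf alone and 15.5% of those low in stem alone. Members with 7 or more exons made up 23.2%, against 40.01% of the other loci compared. The exonic length was similar, with medians of 1778.5 bases in members and 1722 in loci compared. None of these differences was tested, and loci are not independent draws.

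Of the 4 members with most exons, 3 had more than 1 model in at least 1 tissue. The locus with most exons, on 002382F, bases 499448 to 516309 (minus strand), had up to 38 exons in stem, 33 in meristem and 22 in leaf, with leaf, meristem and stem levels of 567, 104 and 428 normalised CPM. A locus on 006383F, bases 87626 to 174523 (minus strand) had 33 exons in stem and 30 in leaf, while in meristem it was split into 4 models with at most 9 exons each. A locus on 001567F, bases 15886 to 544191 (minus strand) spanned 528306 bases with 24 exons in leaf, and was split into 6 models in meristem and 5 in stem. The fourth, on 003775F, bases 374836 to 383180 (minus strand), had 24 exons in meristem, 23 in stem and 19 in leaf, with 98.5, 23.2 and 99.2 normalised CPM in leaf, meristem and stem.

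Very long spans were rare, but their share was higher in members than in the loci compared. A span above 50000 bases was found at 11 members (5%, interval 2.52 to 8.77), against 1.81% of loci compared. The share was 0.481% in loci low in leaf alone and 2.63% in those low in stem alone, and the difference was not tested. Of the 11 members, 6 have a model on their other strand. An intron above 5000 bases was found at 23 members (10.5%, against 8.11%). The longest intron, of 226500 bases, belonged to a locus on 000355F, bases 1048659 to 1279505 (minus strand). Whether such models join separate genes was not tested.

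Models of the members were shorter and more broken in meristem, the tissue in which they were low. The summed meristem model length had a median of 0.914 of the longer of the leaf and stem lengths (0.879 to 0.943), against 0.999 over loci compared. It was under 90% at 102 members (46.4%, interval 39.6 to 53.2), against 16.6% of loci compared. More models in meristem than in either leaf or stem were found at 46 members (20.9%, 15.7 to 26.9), against 4.16% of loci compared, and the reverse at 1 member. Model building depends on reads, so these measures are not independent of the low meristem level. In the loci low in leaf alone and in stem alone, the low tissue's models also fell short, with medians of 0.647 and 0.886 of the longer high-tissue length.

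Dividing counts by model length left most members above the limit. Of the 220 members, 171 (77.7%) kept at least 4-fold in leaf and in stem over meristem per base of model, 208 kept 3-fold and 215 kept 2-fold. By the per-base limits 199 loci qualified (1.11% of those compared), which includes the 171. Of the 14 members whose meristem model was at most 50% of the longer length, 2 kept 4-fold per base.

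The member with the shortest meristem model relative to the longer one was a single-exon locus on 006759F, bases 116478 to 120163 (minus strand). It had 38246 leaf, 2820 meristem and 37916 stem fragments, or 309, 17.8 and 268 normalised CPM. By counts leaf was 17.4-fold and stem 15.1-fold above meristem. The meristem model covered 220 bases, against 3675 in leaf and 3524 in stem, and per base the ratios were 1.04 and 0.943. The lowest fold per base was at a locus on 001209F, bases 365927 to 371131 (plus strand, 2 exons), had 58.9, 7.04 and 29.8 normalised CPM with a meristem model of 309 bases, and its per-base ratios were 1.26 for leaf and 0.653 for stem. These 2 loci were singled out after their values were seen.

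**Figure D4:**
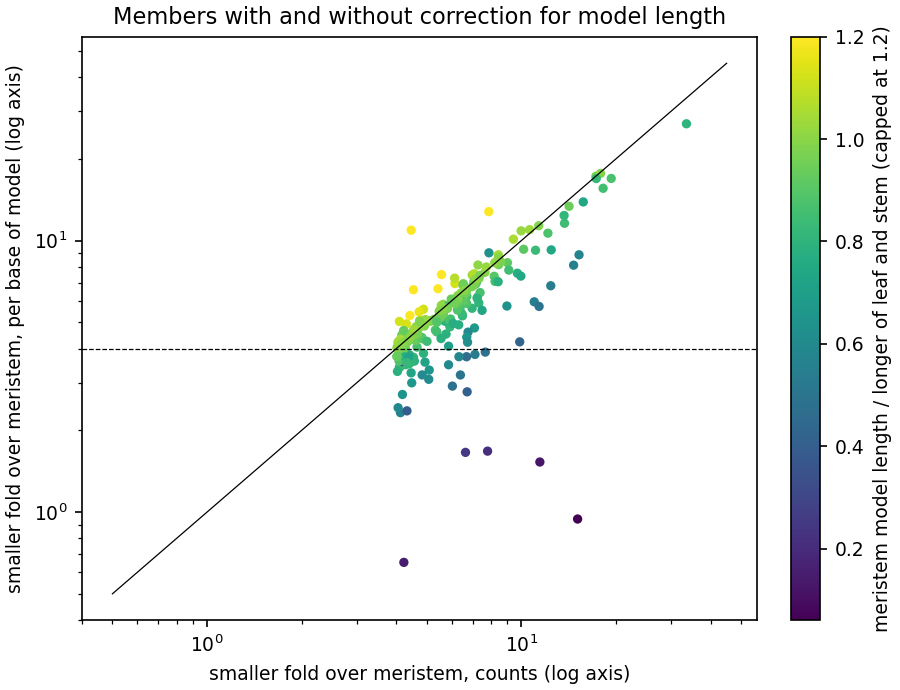
The smaller of the leaf and stem folds over meristem from counts (horizontal) and per base of model (vertical), both on log axes, for the 220 members, coloured by the ratio of meristem to longer model length. The 49 points under the dashed line at 4-fold are members that fall below the limit per base, and the lowest points, at 0.653 and 0.943, are among the 3 with the shortest meristem models relative to the longer one.

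Many members were overlapped by a gene model on the opposite strand. Transcripts from the opposite strand of a gene are common in plant genomes, mostly at low levels. An overlap of at least 1 exonic base was found at 82 members (37.3%, interval 30.9 to 44.0), against 13.6% of the loci compared (13.1 to 14.1), 7.69% of the loci low in leaf alone (4.46 to 12.2) and 17.0% of those low in stem alone (14.9 to 19.4). With at least 100 shared bases the share was 35.9% for the members and 11.7% for the loci compared. This comparison was chosen after the values were seen, and it was not tested.

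The opposite models were mostly short, unspliced and weak. Of the 82 opposite loci, 71 were single-exon, and none was itself a member. The overlap had a median of 398 bases, or 24.1% of the member's exonic bases. Where modelled, the opposite locus (the one with the largest overlap) had a median level of 0.534 normalised CPM in leaf (41 loci), 0.183 in meristem (45) and 0.637 in stem (65). Per base of model this was 6.35% of the member's level in leaf, 15.6% in meristem and 5.95% in stem, as medians. The tables were counted by strand. The sources used here do not say if the kit was one that marks strand, and without such marking the reads of both strands could not be told apart.

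The stem table held the most such models. An opposite model in the stem table was found at 70 members (31.8%, against 9.61% of loci compared), in the leaf table at 44 (20%, against 7.05%) and in the meristem table at 47 (21.4%, against 9.16%). The share also differed between classes of the leaf to stem ratio. It was 10.3% (interval 2.19 to 27.4) at the 29 members at least 2-fold higher in leaf, 38.1% (30.6 to 46.1) at the 160 within 2-fold and 58.1% (39.1 to 75.5) at the 31 at least 2-fold higher in stem. In the other loci compared, the shares for the same classes were 16.2%, 10.9% and 13.6%. The exon medians of the member classes were 5, 3 and 3.

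The overlap was also counted within classes of exon number and of level. Among single-exon loci, 52.5% of members (36.1 to 68.5) and 27.1% of the other loci compared (25.05 to 29.1) were overlapped. With 2 to 3 exons the shares were 42.9% (31.6 to 54.6) and 16.8% (15.7 to 17.9), and with 4 to 6 exons 36.5% (23.6 to 51.0) and 11.4% (10.5 to 12.4). With 7 or more exons they were 17.6% (8.40 to 30.9) and 8.71% (8.06 to 9.39), whose intervals overlap. By the highest level of a locus, 36.9% of members between 10 and 30 normalised CPM were overlapped, 37.1% between 30 and 100 and 38% at 100 or more, against 13.0%, 13.2% and 13.9% of the other loci.

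The share was higher in each successive bin of the fold over meristem from 0.5 upward, also below the limit of 4. Among the 10200 loci compared with at least 10 normalised CPM in both leaf and stem, 9.41% (8.56 to 10.3) were overlapped where the smaller fold was 0.5 to 1, and 12.2% (11.1 to 13.5) where it was 1 to 2. The share was 29.2% (26.0 to 32.5) at 2 to 4, 35.6% (28.6 to 43.0) at 4 to 8 and 45% (29.3 to 61.5) at 8 or more. Over the same bins, the median exon number went from 7 and 5 to 4, 3.5 and 2.

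**Figure D5:**
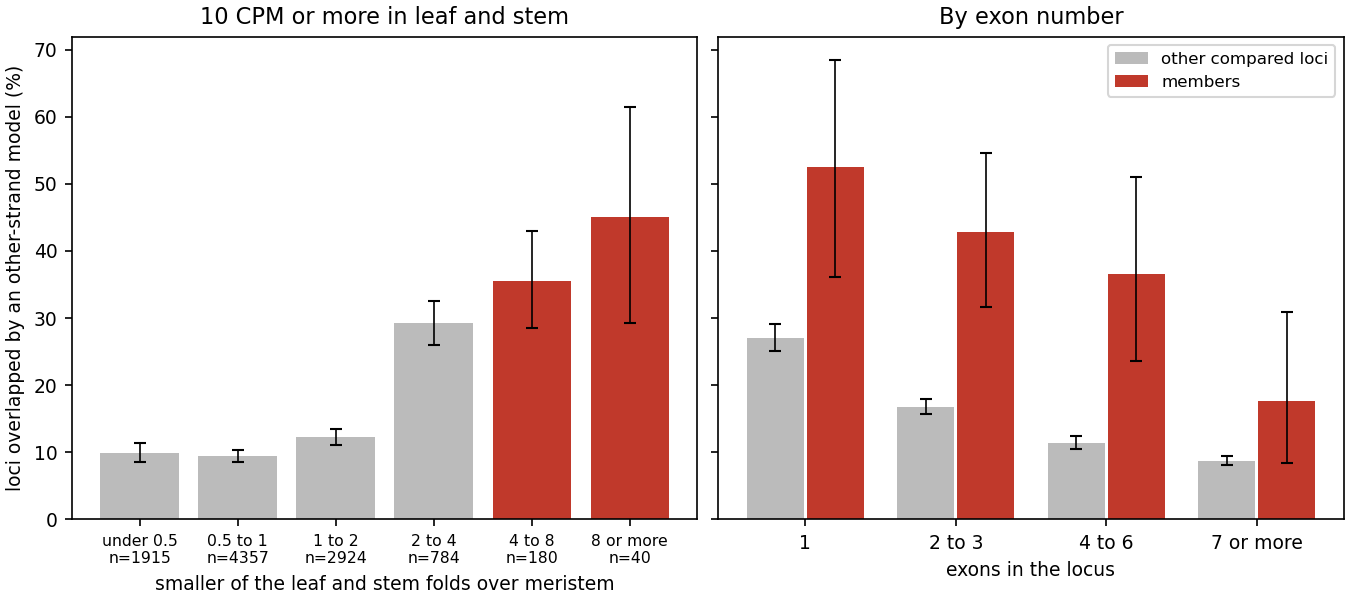
Share of loci overlapped by an opposite-strand model, in percent with exact binomial 95% intervals, by the smaller of the leaf and stem folds over meristem among the 10200 loci at 10 normalised CPM or more in both (left) and by exon number (right). Members are red, and they exceed the grey loci in each exon class, with overlapping intervals for 7 or more exons.

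In 9 pairs the opposite locus had more fragments than the member in at least 1 tissue. One member, single-exon, on 000641F, bases 427764 to 430299 (minus strand), had leaf, meristem and stem levels of 205, 12.2 and 134 normalised CPM, and is wholly covered by a single-exon opposite locus that reached 4.58, 18.3 and 23.7. On 002729F, bases 384868 to 386381 (minus strand), a member of 4 exons had 61.1, 11.0 and 66.5 normalised CPM, while a 24-exon locus on the other strand had 38.7, 69.8 and 66.5, overlapping it by 60 bases. On 010087F, bases 27124 to 29297 (plus strand), a single-exon member had 28.5, 6.60 and 37.5, and its 2-exon opposite locus had 3.99, 2.93 and 78.0. These pairs were picked after their values were seen. In 002729F and 000641F the opposite locus was lowest in leaf, unlike the member, which was lowest in meristem. In 010087F the opposite locus was lowest in meristem, like the member.

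The members were scattered over the assembly. They lay on 207 of the 4855 contigs that hold a compared locus. A contig held 1 member in 197 cases, 2 in 7 and 3 in 3 (contigs 000326F, 002327F and 003045F). Of 13009 pairs of neighbouring loci compared, 308 included a member and 3 of these were made of 2 members, or 0.974% (interval 0.201 to 2.82). For loci low in leaf alone the pairs numbered 10 of 276 (3.62%, 1.75 to 6.56), and for loci low in stem alone 101 of 1451 (6.96%, 5.71 to 8.39). No run of 3 neighbouring members was found. The 3 members of 003045F, for example, had leaf levels of 249, 12.8 and 10.7 normalised CPM and stem levels of 140.3, 18.9 and 12.5, over meristem levels of 25.2, 1.96 and 0.781, in contig order. The sets differ in size, and a larger set forms more pairs by number alone, as may hold for the 1104 loci low in stem alone. The 208 loci low in leaf alone are fewer than the 220 members. Of the loci compared, members are 1.23%, loci low in leaf alone 1.16% and those low in stem alone 6.18%. How many pairs these shares alone would give was not computed. The differences were not tested.

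The loci of a neighbouring pair did not have like leaf to stem ratios. On 000326F, 2-exon loci at 634002 to 635689 and at 645553 to 647227, both on the minus strand, are 9863 bases apart. The first had leaf, meristem and stem levels of 18.01, 2.87 and 67.2 normalised CPM, and the second 22.3, 5.15 and 25.4, so they share the low meristem level and differ in leaf to stem ratio, at 0.268 and 0.880. Both are overlapped by a weak single-exon model of the stem table.

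On 001313F, loci at 159142 to 166189 (3 exons) and 179935 to 184318 (2 exons), both on the minus strand, are 13745 bases apart. They had 56.6, 8.99 and 73.8 normalised CPM in leaf, meristem and stem, and 21.0, 1.05 and 10.6. On 006396F, a 9-exon locus at 23784 to 26460 on the minus strand and a 2-exon locus at 53848 to 57480 on the plus strand are 27387 bases apart. The first was a leaf-biased locus at 443, 18.8 and 104, the second was at 218, 23.96 and 144.6. The second of this pair had a meristem model of 1653 bases against 3116 in leaf, and its stem fold was 2.91 per base.

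The nearest other locus with a model in all tables was at a median of 7296 bases from the 213 members that share a contig with one (order-statistic interval 3228 to 13841), against 3033 (2865 to 3241) for all loci compared. The median was 6280 (4641 to 8100) for loci low in stem alone and 3902.5 (1891 to 7255) for those low in leaf alone. Both medians lie within the interval of the members. By strand, 128 members (58.2%, 51.4 to 64.8) lay on the minus strand of their contig, against 50.5% of loci compared. The strand of an assembled contig is arbitrary.

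Loci without a meristem model were outside the choice. Models in leaf and stem but not in meristem were found at 1627 loci, and 1 of these reached a level of 10 in normalised CPM in both organs. It is a single-exon locus on 004824F, bases 181736 to 184142 (plus strand), where leaf had 1670 fragments and stem 6261, or 13.5 and 44.3 normalised CPM. A missing model is not a count of 0, so it has no fold over meristem.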

How the data were processed

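Counts were analysed for leaf, apical meristem and stem of Cascade hop, 1 column per tissue, which the labels do not tie to either of the 2 samples of that tissue. Per the file headers, the deposited counts are raw fragments per gene model from featureCounts 1.6.3 with strand setting 1 on paired reads, against a model file of each tissue alone. HISAT2 2.1.0 and StringTie 1.3.3b are named in the submitters' processing notes. The paths in the headers name a masked, deduplicated Cascade assembly, which gives the contigs; no other build name is given in the sources used here. No option for multi-mapping reads stands in the headers, so fragments from near-identical copies were not counted by that tool's defaults.

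Models were joined into loci in Python 3.11.15 (pandas 2.3.3, numpy 2.4.6, scipy 1.17.1, matplotlib 3.10.9) and counts summed. TMM factors (edgeR 4.0.16, R 4.3.3; 0.759 leaf, 1.17 meristem, 1.13 stem) came from the 33671 of 33811 loci with a model in all tables that passed edgeR's low-count filter, with file totals as library sizes. A count of 0 was set to 3. Folds carry exact binomial (Clopper-Pearson) 95% intervals, which cover counting error only, since each tissue has 1 count column. PCR copies could not be told from separate molecules, so the intervals may be too narrow even for counting error. Intervals of shares are exact binomial and those of medians are from order statistics, over loci. The limit that a count of 0 allows before scaling was 0.0184 CPM in the leaf column, 0.0221 in meristem and 0.0239 in the stem one. Without replicate columns no p-value was computed. The code for the calls was first run on simulated counts, with chosen loci lowered in meristem by set folds and counting noise alone. This checks the code, and it says nothing on spread between plants or on model length in the real calls.

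The members and lists were chosen with earlier results of these data known. Named loci were the 5 highest in mean leaf and stem level, the 5 with the largest smaller fold, the 3 at each end of the leaf to stem ratio, the 3 nearest 1 at 100 normalised CPM or more, those with most exons (4, since the third place was tied), the neighbouring pairs and the 3 on each side of the limit; others are marked in the text. Alternatives were other scaling, CPM and fold limits, length correction, model joining and subsets of loci.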

Additional observations from a re-analysis of the deposited data

How the results depend on the processing

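No paired analysis was possible because each tissue has 1 column without a replicate number, and for the same reason no replicate could be left out and no test run. Factors by RLE, TMM without the low-count filter and joining by spans gave 232, 219 and 223 members. Under them the medians and shares stayed within their main intervals. Setting a count of 0 to 1 could change nothing, since no locus compared had a count of 0. Values follow as members, members 2-fold higher in leaf, in stem, and within 2-fold. Without scaling factors they were 124, 16, 17 and 91, of which 117 are among the 220. At a CPM minimum of 1 the values were 656, 116, 141 and 399, and at 30 100, 11, 10 and 79. With a fold of 2 they were 1004, 143, 158 and 703, and with 8 they were 40, 4, 7 and 29. With model lengths within 10% they were 93, 14, 16 and 63, fewer by construction. Without loci overlapped on the other strand 138 members were left, 13 higher in stem and 99 within 2-fold. With 1 model in each tissue 19 were higher in stem. The median leaf to stem ratio on the log2 scale ranged from -0.07 to 0.03 over all of these. Members were chosen or filtered anew in each, by limits alike for leaf and stem, which can hold this median near 0.

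Neighbouring pairs numbered 39 at a CPM minimum of 1, 61 at a fold of 2, 1 each at a minimum of 30, with 1 model per tissue and with lengths within 10%, and 0 at a fold of 8 and without overlapped loci. Counted on 1 strand they were 4. The multi-exon share of 81.8% was 69.4% at a CPM minimum of 1, 75% at a fold of 8 and 75.5% with 1 model per tissue. Over all loci compared in those settings it was 80.6%, 89.3% and 86.4%, against 89.3% in the main setting. The meristem length ratio was 0.795 at a minimum of 1, 0.963 at 30, 0.968 at a fold of 2, 0.853 at 8, 0.962 per base, 0.952 with 1 model and 0.979 within 10%. The share overlapped on the other strand was 28.5% at a minimum of 1, 45% at a fold of 8 and 29.0% with lengths within 10%. In the other loci compared it was 12.9%, 13.5% and 11.2%, against 13.3% in the main setting. This result and the length ratio were added to the alternatives after seeing the data. The causes of these moves were not tested. Of the 29 members named by rule, 11 fell below 4-fold without scaling factors and 4 per base. In the smaller fold over meristem, none changed direction under other scaling or per base, the only alternatives run for them that change their folds. The leaf to stem direction of the named members was not followed in these alternatives. Leaving the factors out lowers each log2 leaf over stem ratio by 0.57, so a ratio near 1 rests on the factors. The other settings leave each fold as it was and could not change a direction, and joining by spans was not run for them. Of the members named outside that rule, the stem over meristem ratio per base was below 1 at 006759F (0.943) and 001209F (0.653). Depth was not varied. The smallest member count was 72, but the rule itself asks for a model in meristem, and the 1627 loci with leaf and stem models alone stood outside it.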
